A study of Capra hircus and Bos taurus with 7 samples.

Results

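Some microRNAs (miRNAs) carried by extracellular vesicles of milk powders were well measured in every goat library and close to absent in the bovine one. The set described here comprised 6 of these among the 364 bovine miRNA names in the deposited tables. Its members were bta-miR-224, bta-miR-3431, bta-miR-374a, bta-miR-374b, bta-miR-3613a and bta-miR-3613b. Other miRNAs outside the set shared this pattern, as given below. They were selected on the bovine reads as a share of the pooled goat reads, so their low bovine level describes the choice and is not tested here. The rows of bta-miR-3613a and bta-miR-3613b held the same value in all 7 libraries and were summed into 1, called miR-3613 below, which leaves 5 miRNAs of 363. Vesicles are membrane-bound particles that cells release, and they were separated here by size exclusion chromatography from powders taken up in warm water. Small RNA was sequenced from 3 libraries of whole goat (Capra hircus) milk powder, 3 of skimmed goat milk powder, lettered A to C, and 1 of a commercial bovine (Bos taurus) milk powder. The labels give no breed, age, lot or number of animals, and do not say whether a letter stands for a separate pack or a repeat isolation, so the p-values below rest on a spread that may be only technical. Species, product and library cannot be told apart in the bovine sample.

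A mature miRNA guides a silencing complex to messenger RNAs that match its seed, the short stretch near its 5′ end. MiR-224 lies in humans within an intron of GABRE, a gene for a GABA-A receptor subunit, beside miR-452, and has been studied in the granulosa cells of the ovary and in liver cancer. MiR-374a and miR-374b are processed in humans from the X-linked non-coding transcript FTX, together with miR-545 and miR-421, and miR-374a is known as a repressor of Wnt antagonists. MiR-3613 lies in humans near the miR-15a and miR-16 pair. Little is known of miR-3431. In the RefSeq goat gene table (ARS1.2), used here for names and neighbours, MIR3431 and MIR224 followed each other within GABRE. MIR374A was followed by MIR545, MIR374B and MIR421 in that order, and the table held no entry for miR-3613. The gene LOC102191314 spanned MIR374A and MIR545, and no gene in the table spanned MIR374B or MIR421.

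The libraries held 6561887 to 11963849 miRNA reads in goat and 5675489 in bovine. As a description, miRNAs of mammary and other secretory epithelium were listed, such as miR-148a and the miR-200 family. All 7 of these were present in both species, at a summed level of 143905 to 167505 counts-per-million (CPM) of miRNA reads in the goat libraries and 134651 CPM in the bovine library. Single bovine levels ran from 41.4% of pooled goat for miR-375 to 149% for miR-200c. No fraction other than vesicles was among the libraries, so their presence cannot check vesicle origin.

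The most abundant of the set was bta-miR-224. It stood at 1925, 1397 and 1457 CPM in whole powder A, B and C, and at 2283, 2019 and 1360 CPM in skimmed powder A, B and C. Its highest and lowest values were thus both in skimmed powder, and the 2 powders overlapped. The bovine library held 74 reads of it, or 13.0 CPM, against 10818 to 21200 reads in the goat libraries. It ranked between place 51 and place 60 of 363 in the goat libraries and at place 130 in the bovine one.

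Its neighbour in the goat gene table, bta-miR-3431, stood at 314, 402 and 428 CPM in whole A to C and at 328, 617 and 230 CPM in skimmed A to C. Skimmed B was the highest and skimmed C the lowest library. The bovine library held 14 reads, or 2.47 CPM. The proportion of these neighbours differed between goat libraries, with 6.13, 3.47 and 3.41 reads of miR-224 per read of miR-3431 in whole A to C and 6.96, 3.27 and 5.93 in skimmed A to C. The high proportions fell in both powders.

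Of the miR-374 members, bta-miR-374a stood at 838, 554 and 567 CPM in whole A to C and at 548, 576 and 532 CPM in skimmed A to C. Whole A stood apart above the other 5 libraries, which lay between 532 and 576 CPM. The bovine library held 24.5 estimated reads, or 4.32 CPM. Some deposited counts are fractions, and the sources used here do not say how reads that match several entries were counted.

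The second miR-374 member, bta-miR-374b, stood at 214, 583 and 229 CPM in whole A to C and at 298, 327 and 149 CPM in skimmed A to C. Here whole B was the high library and skimmed C the low one, a 3.91-fold range. The bovine library held 9 reads, or 1.59 CPM. Reads of miR-374a outnumbered those of miR-374b by 1.76 to 3.92 in 5 goat libraries, but not in whole B, where the ratio was 0.950.

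The summed miR-3613 stood at 611, 552 and 433 CPM in whole A to C and at 356, 259 and 639 CPM in skimmed A to C. Skimmed C, low for the other members, was here the highest library. The row of bta-miR-3613a alone stood at 305, 276 and 217 CPM in whole and 178, 130 and 319 CPM in skimmed, and that of bta-miR-3613b was identical. The files do not show whether each read was divided between these rows or counted in both, so the summed level could be up to double the true one. Each of these rows held 10 bovine reads. Identical values in all libraries were seen for 10 pairs of rows in the tables.

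**Figure D1:**
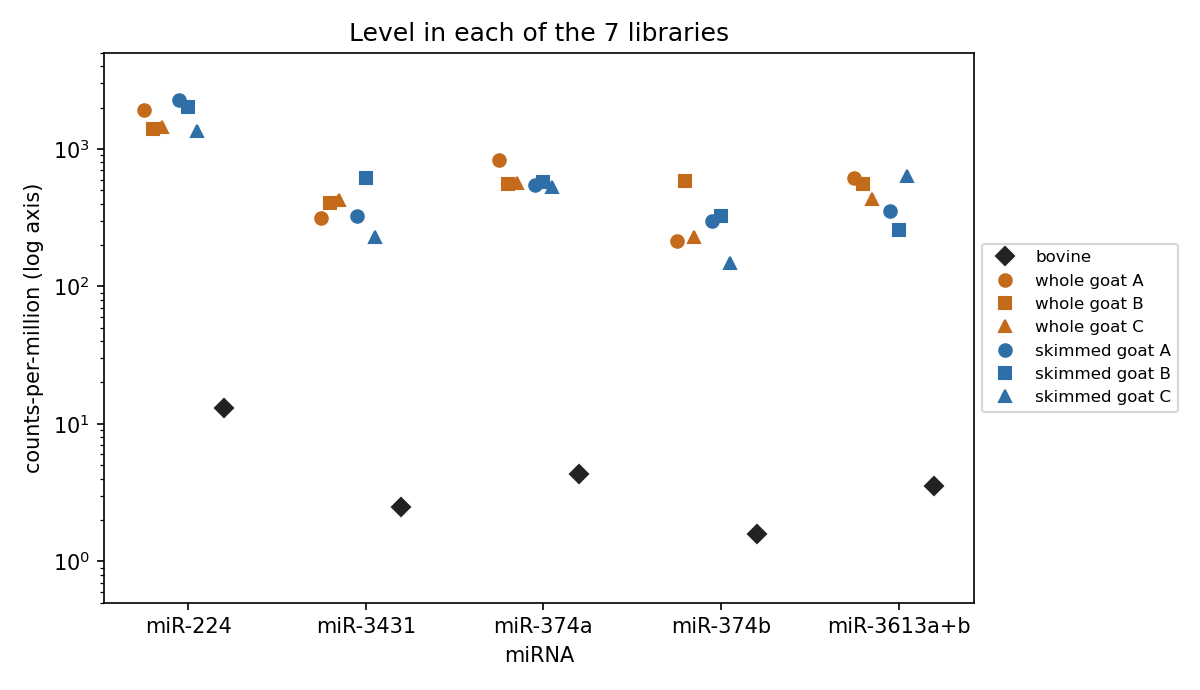
Level of each miRNA (x axis) in CPM on a log axis (y axis), 1 point per library, with colour for the powder and shape for the letter. The goat points lie between 149 and 2283 CPM and the bovine points between 1.59 and 13.0 CPM.

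Across the 6 goat libraries the order by mean was miR-224 at 1740 ± 387 CPM (SD, n = 6), miR-374a at 602 ± 116, miR-3613 at 475 ± 151, miR-3431 at 386 ± 133 and miR-374b at 300 ± 152 CPM. The lowest miR-224 value, 1360 CPM, lay above the highest value of any other member, 838 CPM. The ranges of the 4 others overlapped, so their order is not fixed beyond the spread of libraries. The place of miR-3613 also rests on the sum of its rows, each of which alone stood at 130 to 319 CPM. The 5 together made up 0.291% to 0.390% of the miRNA reads of a goat library and 0.00249% of the bovine ones.

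The spread of most members was like that of other miRNAs of their level. The coefficient of variation over the goat libraries was 22.2% for miR-224, where the 26 other miRNAs within a factor of 2 of its level had a median of 22.1%. It was 34.4% for miR-3431 (median 35.1% of 25) and 31.7% for miR-3613 (30.3% of 28). MiR-374a varied by 19.3%, and 21 of 25 miRNAs of like level varied more. MiR-374b varied by 50.9%, and 6 of 26 varied more. None of the 5 dropped out of a goat library. Lower partners did, as shown by miR-452, with 1550 reads in whole B and 8 in skimmed A.

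The values that chose the set are these. Bovine reads were 0.0796% of pooled goat reads for miR-224, 0.0790% for miR-3613, 0.0766% for miR-374a, 0.0659% for miR-3431 and 0.0539% for miR-374b, while the bovine library as a whole was 10.5% of the pooled goat total. In CPM, the bovine level was 0.760% of the pooled goat level for miR-224 (95% interval 0.597% to 0.954%), 0.754% for miR-3613 (0.461% to 1.16%), 0.731% for miR-374a (0.471% to 1.08%), 0.629% for miR-3431 (0.344% to 1.06%) and 0.514% for miR-374b (0.235% to 0.977%). In folds, goat stood 132 times above bovine for miR-224 and 194 times for miR-374b. The intervals are Clopper-Pearson intervals on the reads and cover counting error only, since 1 bovine library gives no spread between libraries. PCR copies of 1 molecule were not told apart, so the counting error itself may be larger. The miR-3613 interval rests on 20 summed bovine reads. It would be wider if these were 10 reads counted in both rows. With DESeq2 size factors over the 7 libraries in place of library totals the shares became 1.08% to 1.60%.

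The members were not alone at this level. Of 125 miRNAs with at least 100 CPM in the pooled goat reads, 32 (25.6%) had a bovine level of at most 10% of goat, and the bovine library lay below all 6 goat libraries for 69 (55.2%). All 5 members were in both counts. The choice on pooled goat reads fixes the first count and favours the second without fixing it. MiR-6119-5p, at a share of 0.814%, stood at 1.41 CPM in bovine and at 1.22 CPM in its lowest goat library. The shares had a gap: 27 miRNAs lay between 0.514% and 1.38%, with a median of 0.730%, and the next, miR-16b, was at 2.95%. The 5 members held places 1, 5, 15, 16 and 17 in this rank, and the first miRNA above the last of them was miR-6119-5p at 0.814%. The median over all 125 was 58.8%. Whether the bovine reads on this flat stretch came from the bovine powder or were goat reads assigned to the bovine library was not tested.

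**Figure D2:**
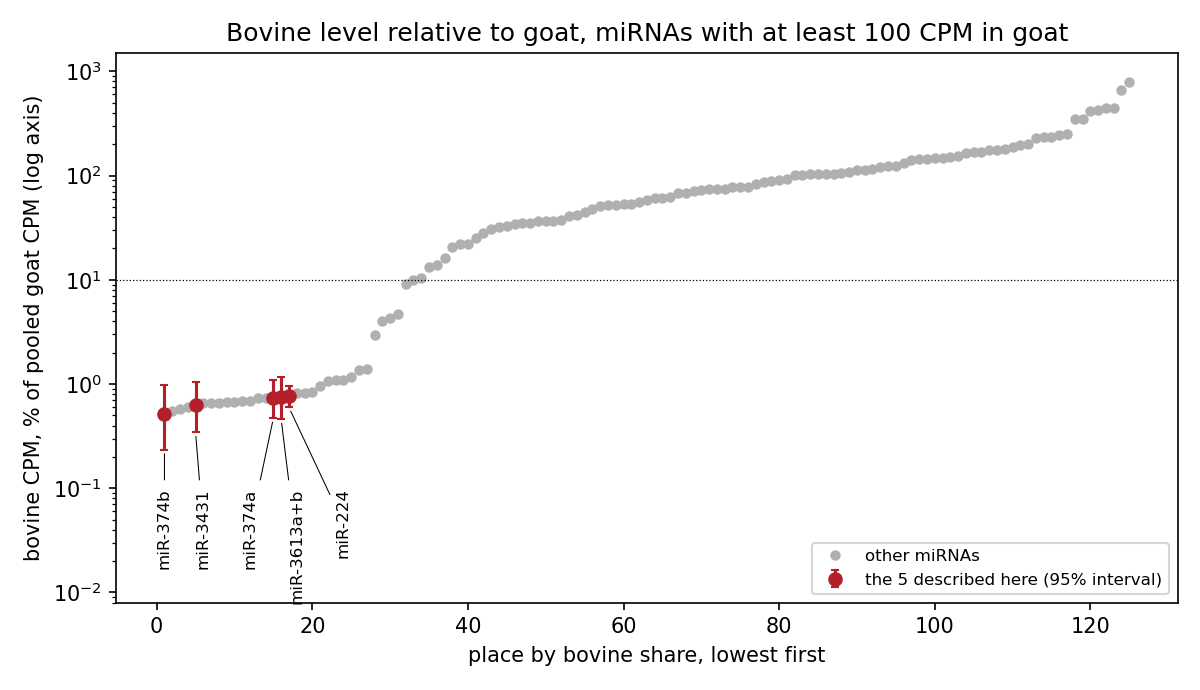
Bovine CPM as a percentage of pooled goat CPM (y axis, log) for the 125 miRNAs with at least 100 CPM in goat, by place from the lowest share (x axis); red points are the members with their 95% interval and the dotted line marks 10%. The members lie on a flat stretch of 27 miRNAs that ends at 1.38%.

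Other miRNAs with a like pattern over the 7 libraries were listed as a description. Likeness was the root mean square difference of log2(CPM + 1), each miRNA taken relative to its goat mean, among 120 candidates. The bovine library, on which the set was chosen, weighs most in this measure, so that the nearest miRNAs were bound to be others with a low bovine share. For miR-224 the nearest were miR-155 (0.23) and miR-223 (0.31), where the median candidate differed by 2.44; both are leukocyte miRNAs. The same 2 were nearest to miR-374a (0.34 and 0.35). For miR-3431 they were miR-494 (0.35) and miR-155 (0.42), and for miR-374b miR-409b (0.37) and miR-494 (0.52). For miR-3613 they were miR-411a (0.16) and miR-3578 (0.30), a row identical to that of miR-382.

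Most listed markers of other cell types were also low in the bovine library. Leukocyte miRNAs, all 7 with a row, summed to 21551 to 25500 CPM in the goat libraries and to 933 CPM in the bovine one. Of the 7, 6 stood at most at 10% of goat, and the bovine library lay below all goat libraries for 5. Over the 125 miRNAs with at least 100 CPM in pooled goat reads, these shares were 25.6% and 55.2%. MiR-142-3p, miR-146a and miR-150 did not reach that level. Most of the sum was miR-146b, at 20743 CPM in pooled goat and 828 CPM in bovine. MiR-142-3p and miR-150 were at 0 in bovine and low in goat, at 6.91 and 6.99 CPM. The exception, miR-142-5p, stood at 36.5%. The 3 stromal and endothelial miRNAs with a row summed to 1487 to 2458 CPM in goat and 17.2 CPM in bovine, with miR-126-3p at 0. Most of that sum was miR-143, at 1751 CPM in pooled goat, and the bovine library lay below all goat libraries for 1 of the 3. The 1 erythroid row, miR-486, stood at 15.6 to 72.8 CPM in goat and 0.176 CPM in bovine. The 3 muscle, liver and nerve rows summed to 0.585 to 120 CPM in goat and 0.352 CPM in bovine, with miR-122 and miR-124a at 0. For 0 of these 3 did the bovine library lie below all goat libraries. The part of these cell types in the bovine level of the set was not tested. In such material fewer vesicles of a cell type and fewer copies per vesicle cannot be told apart.

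The relatives and neighbours of the set did not all share its pattern. MiR-374c, named here after its values were seen, was higher in bovine, at 148 CPM against 110, 26.7 and 123 CPM in whole A to C and 72.4, 64.0 and 68.6 CPM in skimmed A to C. Its bovine level was 190% of the pooled goat level (95% interval 176% to 204%). It took 96.2% of the bovine reads of the 3 miR-374 rows (94.7% to 97.3%), and between 2.30% and 13.4% of those reads in the goat libraries. The summed level of the 3 rows was 153 CPM in bovine and 750 to 1164 CPM in goat. In humans the miR-374c hairpin lies on the strand opposite miR-374b, and no source used here says whether the deposited counting used strand.

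**Figure D3:**
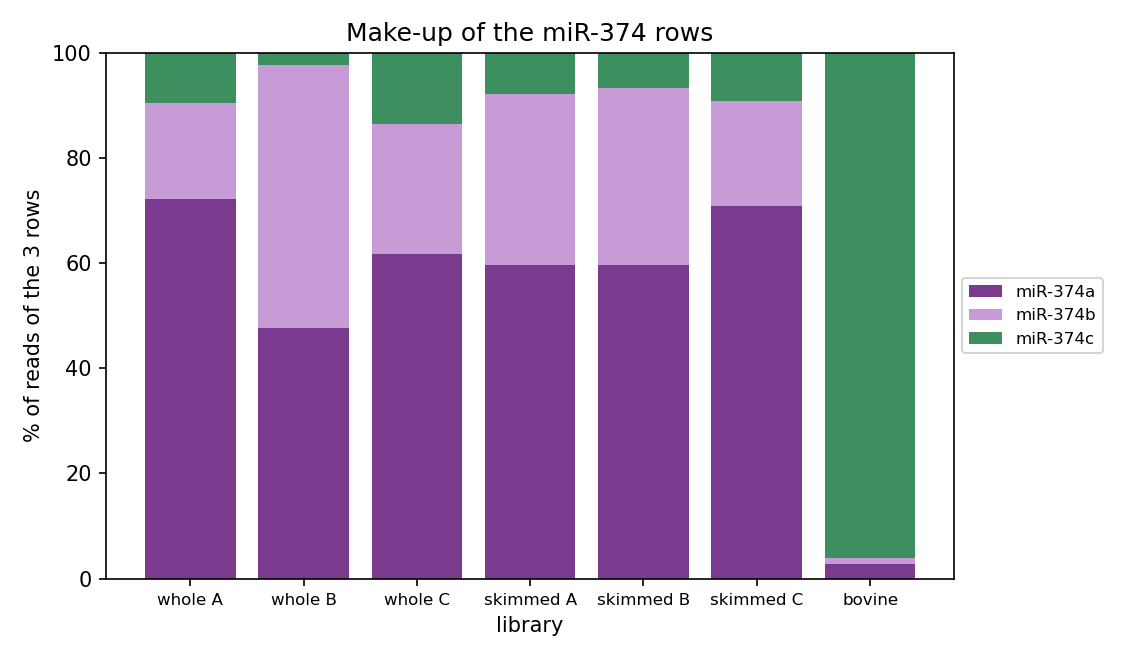
Make-up of the reads of miR-374a, miR-374b and miR-374c, as a percentage of their sum (y axis), in each library (x axis). The miR-374c part is 96.2% in the bovine library and at most 13.4% in a goat library.

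MiR-421, the neighbour of miR-374b, was also higher in bovine, at 169 CPM (960 reads), against 70.7, 80.2 and 0.418 CPM in whole A to C and 48.7, 92.6 and 22.4 CPM in skimmed A to C. Its bovine level was 342% of pooled goat (318% to 368%), where that of miR-374b was 0.514%. For each read of miR-421 there were 3.02 to 547 reads of miR-374b in the goat libraries, the highest value in whole C, which held 5 reads of miR-421. In the bovine library there were 0.00938. No row carried the name miR-545.

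Beside miR-224 in the human genome, miR-452 stood at 96.6, 153 and 77.8 CPM in whole A to C and at 0.862, 90.4 and 37.2 CPM in skimmed A to C. Skimmed A, with 8 reads, was as low as the bovine library, with 5 reads or 0.881 CPM. The bovine share was 1.15% of pooled goat (0.372% to 2.67%).

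Of the miRNAs named after the pair near miR-3613 in humans, miR-16a and miR-16b were abundant and even in goat, at 9672 ± 685 and 9589 ± 649 CPM (SD, n = 6). The sources used here do not show which of these 2 rows, if either, comes from that place in the genome. Their bovine level was 4.73% and 2.95% of pooled goat, above that of the members with intervals that did not overlap theirs. MiR-15a, which shares their seed, had 0 bovine reads, where a floor of 3 reads corresponds to 0.529 CPM. Its pooled goat level was 25.0 CPM. The 95% interval of its bovine share ran from 0% to 2.60% of pooled goat, so it cannot be set apart from the members' shares. In goat it had 440, 670 and 6 reads in whole A to C and 2, 2 and 234 in skimmed A to C. MiR-16a and miR-16b are near-identical names whose reads the counting could divide.

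Skimmed against whole goat powder was the one comparison that the choice of the set did not use. None of the 5 was called in it. The test was edgeR's quasi-likelihood test over 208 miRNAs with Benjamini-Hochberg adjustment, in which 1 miRNA, miR-25, was called (0.481%). At an unadjusted p under 0.05 there were 0 members and 22 miRNAs in all. DESeq2's Wald test also called 0 members, where it called 9.27% of 248 miRNAs, and limma-voom called 0 members and 1 of 208 miRNAs (0.481%). The whole and skimmed libraries overlapped in CPM for each member, while they did not for 20.2% of the 208.

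MiR-224 averaged 1593 ± 289 CPM in the whole and 1888 ± 475 CPM in the skimmed libraries (SD, n = 3 each). Its log2 fold change was 0.34 ± 0.23 (SE), with a 95% interval of -0.20 to 0.88 and an edgeR adjusted p of 0.70. Changes up to 1.84-fold were thus inside its interval. MiR-3431 averaged 381 ± 59.6 and 391 ± 201 CPM, and its log2 fold change was 0.13 ± 0.42 (SE). Without skimmed B this became -0.34, and its sign also turned with upper-quartile scaling and in limma-voom, at -0.022 and -0.019. The other 3 had values below 0. MiR-374a averaged 653 ± 160 and 552 ± 22.4 CPM, and its log2 fold change of -0.15 ± 0.26 (SE) became 0.079 without whole A. For miR-374b, at 342 ± 209 and 258 ± 95.2 CPM, the log2 fold change was -0.29 ± 0.55 (SE), the 95% interval ran from -1.55 to 0.97, and the value became 0.28 without whole B. For miR-3613, at 532 ± 90.5 and 418 ± 197 CPM, it was -0.26 ± 0.37 (SE), and between -0.69 and -0.012 when 1 library was left out. That range was 0.12 to 0.53 for miR-224. The edgeR adjusted p was 0.96 for miR-3613 and 0.97 for miR-3431, miR-374a and miR-374b.

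The members' median log2 fold change was -0.15, with 2 of 5 values above 0, beside a median of 0.03 over all 208, of which 112 were above 0. The partner miRNAs showed no call either: of 5 with a row and of miR-374c, 0 passed in edgeR. The log2 fold change was 0.02 ± 0.11 (SE) for miR-16a and 0.03 ± 0.11 for miR-16b. It was less well fixed for miR-421, at 0.22 ± 1.53, for miR-374c, at -0.27 ± 0.92, for miR-452, at -1.28 ± 1.36, and least of all for miR-15a, at -2.10 ± 2.24, with a 95% interval of -7.24 to 3.05.

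**Figure D4:**
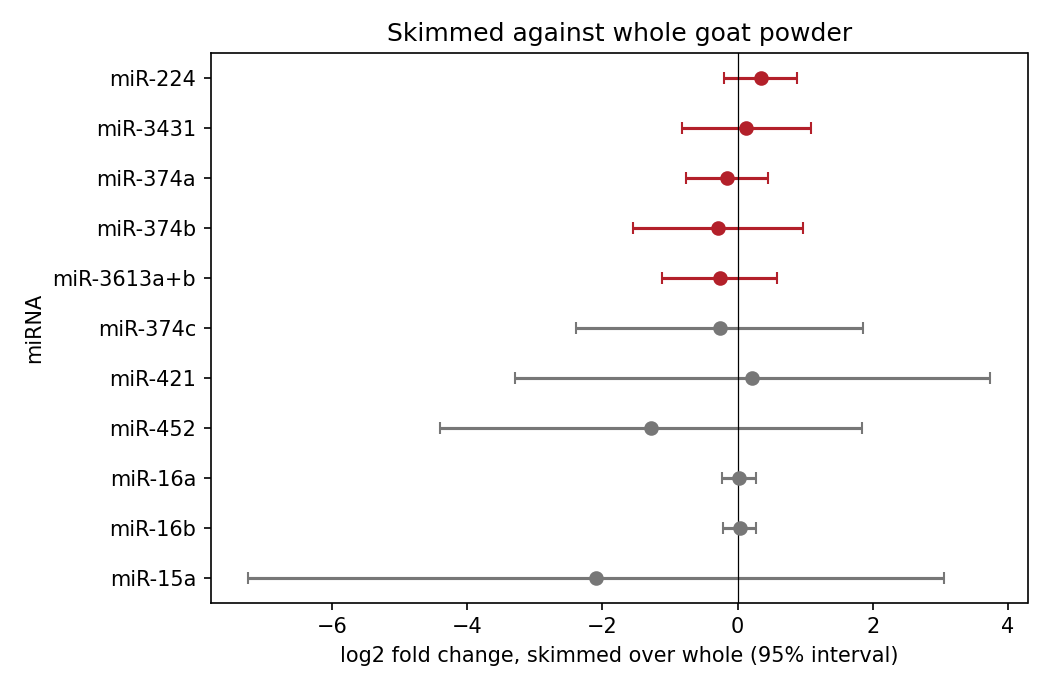
Log2 fold change of skimmed over whole goat powder (x axis) with its 95% interval from edgeR, for the members (red) and their partners (grey) on the y axis. All intervals include 0, and those of miR-15a, miR-421 and miR-452 are the widest.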

How the data were processed

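The deposited tables give estimated counts per mature miRNA under bovine names, per the file headers. Many deposited estimated counts are fractions, and library totals differ, so they were read as not normalized. Per the labels' protocols, libraries were size-selected on acrylamide gel and read as single ends of 50 bases. No aligner, counter, miRNA reference or build is given in the sources used here. CPM were computed over all rows of a library. For tests, counts were rounded to whole numbers. EdgeR 4.0.16 (R 4.3.3) was run on the 6 goat libraries across all miRNAs left by its default filter. TMM factors were 0.928 to 1.067 and the adjusted p threshold was 0.05. SE was the log2 fold change over the square root of F. The test was also run on simulated data, but its power at the members' levels and fold changes is not given here. DESeq2 1.42.0 and limma 3.58.1 gave alternatives. Fold changes are edgeR's and levels are plain CPM.

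The members, partners, marker lists and comparisons were chosen with earlier results of these data known. Named were the members, their listed partners, the 2 most like miRNAs of each member, the neighbour in the rank of shares, and calls numbering 5 or fewer. The planned sequence features were not analysed here.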

Additional observations from a re-analysis of the deposited data

How the results depend on the processing

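No member was called skimmed against whole under any of the 15 alternatives, with adjusted p from 0.30 to 1.00. Over all miRNAs, 0 were called with upper-quartile scaling, library totals, DESeq2 size factors or the letters as a replicate block, 23 by DESeq2's Wald test, 5 when miRNAs averaging under 100 CPM were left out, and 0 to 1 when 1 goat library was left out. Deviations of same-letter libraries correlated at 0.20, 0.14 and 0.06, each the highest for its letter, with whole C against skimmed B at 0.03. Whether letters pair libraries was not tested, and the labels do not say so. The sign of the log2 fold change turned for miR-3431 (-0.022 with upper-quartile scaling, -0.019 in limma-voom, and -0.34 without skimmed B in a range of -0.34 to 0.39 over the 6 libraries left out), for miR-374a (0.079 without whole A, range -0.29 to 0.079) and for miR-374b (0.28 without whole B, range -0.53 to 0.28); that of miR-224 (range 0.12 to 0.53) and miR-3613 (range -0.69 to -0.012) did not. The bovine share left its counting interval with DESeq2 size factors (1.60% for miR-224, 1.33% for miR-3431, 1.54% for miR-374a, 1.08% for miR-374b, 1.59% for miR-3613) and, for miR-224, with TMM scaling (1.13%). Leaving out 1 goat library gave 0.472% to 0.816% over the members. The bovine depth, with 9 to 74 reads a member, limits what its values can show.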

Other observations

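The flat stretch of bovine shares below 2% held 22 miRNAs besides the members, each row counted as 1. The rows of miR-382, in the cluster named next, and of miR-3578, not on the list used for that cluster, had identical values in all libraries. The place of miR-3578 in the genome was not checked here. By textbook membership, listed after the shares were seen, 11 of them belong to the imprinted DLK1-DIO3 cluster, a large cluster expressed from the maternal chromosome: miR-323b-3p, miR-382, miR-409b, miR-411a, miR-411c-5p, miR-655, miR-369-3p, miR-494, miR-379, miR-127 and miR-323. Their bovine level was 0.595% to 1.38% of pooled goat. The cluster had 12 miRNAs with at least 100 CPM in goat, and the other one, miR-487b, stood at 13.8%. Over all miRNAs of that level, 27 of 125 lay on the flat stretch. The remaining 11, with miR-3578 counted among them, included the leukocyte miRNAs miR-155, at 0.551% on 44 bovine reads, and miR-223, at 0.834% on 65 reads. They also included the stromal miR-143, at 0.961%.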
